A study of Mus musculus with 13 samples.

Results

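The 9 genes described here encode subunits of Polycomb repressive complex 1 (PRC1): Rnf2, Ring1, Bmi1, Pcgf2, Cbx2, Cbx6, Cbx7, Cbx8 and Rybp. They were chosen by symbol, for their place in the complex, from the 38377 gene identifiers of the count table, and all 9 had counts in every one of the 13 mouse RNA-seq libraries. The libraries fall into 6 groups, and all came from female cell lines. Epiblast stem cells (EpiSC), a primed pluripotent line kept on a matrigel coat in medium with FGF2 and Activin, were heterozygous for a deletion of Xist (△Xist in the labels, dXist EpiSC here, 2 libraries) or wild type (WT EpiSC, 2). Extraembryonic endoderm stem cells (XEN), a line of the primitive endoderm grown in DMEM with serum, carried a deletion of the paternal Xist allele and received 5-aza-2'-deoxycytidine (Aza dXist XEN, 2), carried the deletion without treatment (dXist XEN, 3), were wild type and treated (Aza WT XEN, 2), or were wild type and untreated (WT XEN, 2). The inhibitor of DNA methylation was given at 20 uM, and the labels state no duration. The design compares Xist loss in both cell types, the inhibitor in XEN cells of either genotype, and the cell types with each other. The labels do not say whether replicates were separate clones or cultures, so every p-value below measures only the spread between these libraries. In bulk RNA, fewer cells that express a gene and less RNA per cell cannot be told apart.

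PRC1 is a chromatin complex that attaches a single ubiquitin to histone H2A and compacts the chromatin of silenced developmental genes. Its core pairs a RING1 enzyme (Rnf2 or Ring1) with a PCGF protein (Bmi1, Pcgf2 and others). Canonical complexes add a CBX protein whose chromodomain reads the trimethyl mark that PRC2 places on histone H3, whereas variant complexes carry Rybp or Yaf2 in place of the CBX protein. Xist RNA, which coats and silences one X chromosome in female cells, brings in variant PRC1 early in silencing, and the imprinted inactivation of extraembryonic tissues such as the primitive endoderm falls on the paternal X.

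Each library held between 5848454 and 35247432 counts assigned to genes. Xist, the deleted gene, was at 0.435 and 0.276 CPM (counts scaled to 1000000 by TMM library size) in the dXist EpiSC libraries, against 816 and 206 CPM in WT EpiSC. Among XEN libraries it was at 2.28, 1.16 and 4.79 CPM in dXist XEN, against 1551 and 1587 CPM in WT XEN. The libraries labelled Aza dXist XEN were at 14.6 and 242 CPM, above every dXist XEN library and below every WT XEN library. The Aza WT XEN libraries were at 1627 and 1215 CPM. The labels name a deletion of the paternal allele, and what set the Xist level of Aza dXist XEN library 2 was not tested. All 9 XEN markers reached 1 CPM in every XEN library and summed to 17296 to 61123 CPM there, against 156 to 279 CPM in EpiSC; all 8 EpiSC markers reached 1 CPM in every EpiSC library. The libraries were of different kinds: mitochondrial rRNA and Rn7sk took 10.4 to 13.5% of counts in both Aza WT XEN libraries and in library 2 of each EpiSC group (total-like), and at most 0.279% in the other libraries (polyA-like). They also differed in how GC-rich genes fared against AT-rich genes. By the difference in median centred log2 CPM between genes above 54.3% and below 44.7% GC, Aza dXist XEN library 1 stood at -2.11 and WT EpiSC library 1 at -1.20, and the other 11 libraries lay between -0.23 and 0.91.

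The positions of the genes, on GRCm38, place several of them side by side. Cbx2 (ENSMUSG00000025577, chr11:119022962-119031270, plus strand) and Cbx8 (ENSMUSG00000025578, chr11:119036305-119040969, minus strand) are neighbours 5034 bp apart, and Cbx6 (ENSMUSG00000089715, chr15:79823896-79834688, minus strand) and Cbx7 (ENSMUSG00000053411, chr15:79915807-79971119, minus strand) are 81118 bp apart. Bmi1 (ENSMUSG00000026739) lies at chr2:18677018-18686629 on the plus strand. On the minus strand lie Pcgf2 (ENSMUSG00000018537, chr11:97688823-97700497), Ring1 (ENSMUSG00000024325, chr17:34020792-34024680), Rnf2 (ENSMUSG00000026484, chr1:151458004-151500955) and Rybp (ENSMUSG00000072872, chr6:100228565-100287485). Exons of Cbx6 share 5.31% of their length with Npcd on the same strand, where a read cannot be assigned to one gene. Exons of Rnf2 share 3.83% with Trmt1l, and exons of Cbx7 share 1.54% with Apobec3, both on the opposite strand; no source used here states the strand setting of the counting. The genes also split by base composition: the longest transcripts of Rnf2, Bmi1 and Rybp held 39.5%, 40.2% and 43.6% G and C, and those of the other 6 genes held 54.0 to 57.6%.

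Because the inhibitor blocks methylation of CG dinucleotides, the bases upstream of the RefSeq gene start (GRCm38.p6) were searched for the motif CG, which reads the same on both strands. Of the 9 genes 7 had an entry; Cbx2 and Rybp had none. The 250 bases before the start held 30 CG in Ring1, 23 in Cbx7, 22 in Cbx8, 21 in Bmi1, 20 in Cbx6, 20 in Rnf2 and 5 in Pcgf2, and 92.1% of all 32851 promoters of that length held at least 1, with a median of 6. As many CG as in Bmi1, Cbx7 and Cbx8 were found in 16.3%, 13.3% and 14.8% of all promoters. These counts include bases inside annotated exons, and in Cbx6 0 of the 250 bases lay outside them. The upstream bases of these 3 genes are shown because Bmi1, Cbx7 and Cbx8 have the largest called differences between the cell types with the deletion. Each is written 5′ to 3′ on the strand of its gene, limited to bases outside annotated exons, with CG in capitals: Bmi1 at chr2:18676768-18677017 (plus strand), Cbx7 at chr15:79932769-79932896 (minus strand) and Cbx8 at chr11:119040970-119041163 (minus strand). The RefSeq start of Cbx7 lies inside the GENCODE gene given above, so its bases are upstream of the RefSeq start and not of the outermost GENCODE start.
Bmi1: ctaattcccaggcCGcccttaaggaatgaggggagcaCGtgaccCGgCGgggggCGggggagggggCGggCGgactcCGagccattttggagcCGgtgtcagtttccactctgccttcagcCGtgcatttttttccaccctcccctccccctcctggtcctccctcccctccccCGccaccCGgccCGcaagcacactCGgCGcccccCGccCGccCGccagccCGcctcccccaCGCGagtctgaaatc
Cbx7: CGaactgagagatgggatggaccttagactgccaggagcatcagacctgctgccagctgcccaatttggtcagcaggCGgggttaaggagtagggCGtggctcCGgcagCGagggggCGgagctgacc
Cbx8: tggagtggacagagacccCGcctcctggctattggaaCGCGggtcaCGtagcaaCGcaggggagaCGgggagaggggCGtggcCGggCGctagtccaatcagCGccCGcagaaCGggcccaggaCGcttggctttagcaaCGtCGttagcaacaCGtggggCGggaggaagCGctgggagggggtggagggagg
DNA methylation was not measured in these libraries.

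Per length of exon, the genes kept a wide range of levels in each group. Rnf2 had the highest mean in all 6 groups, from 22.4 CPM per kb in dXist EpiSC and 35.1 in WT EpiSC to 39.3 in Aza dXist XEN, 27.0 in dXist XEN, 26.9 in Aza WT XEN and 24.6 in WT XEN. In WT XEN the order on this scale was Rnf2, Pcgf2 (20.4 CPM per kb), Rybp (11.9), Ring1 (9.44), Cbx6 (8.25), Bmi1 (7.97), Cbx7 (4.11), Cbx8 (3.23) and Cbx2 (1.54). Neighbours with overlapping libraries in that order were Rnf2 and Pcgf2, Ring1 and Cbx6, Cbx6 and Bmi1, and Cbx7 and Cbx8. In WT EpiSC the order was Rnf2, Rybp (18.6 CPM per kb), Pcgf2 (11.5), Cbx2 (5.53), Cbx7 (4.99), Bmi1 (4.63), Cbx6 (4.01), Ring1 (2.63) and Cbx8 (0.299), and the libraries of Pcgf2 and Cbx2, Cbx6 and Ring1, and Ring1 and Cbx8 did not overlap. There Cbx8 came last and Cbx2 led the CBX genes, whereas in WT XEN Cbx2 came last. In dXist EpiSC the mean of Cbx7 was 12.2 CPM per kb, below those of Rnf2 and Pcgf2, with libraries within the range of Pcgf2, and in dXist XEN Cbx7 was last at 0.985, with libraries overlapping those of Cbx2.

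**Figure D1:**
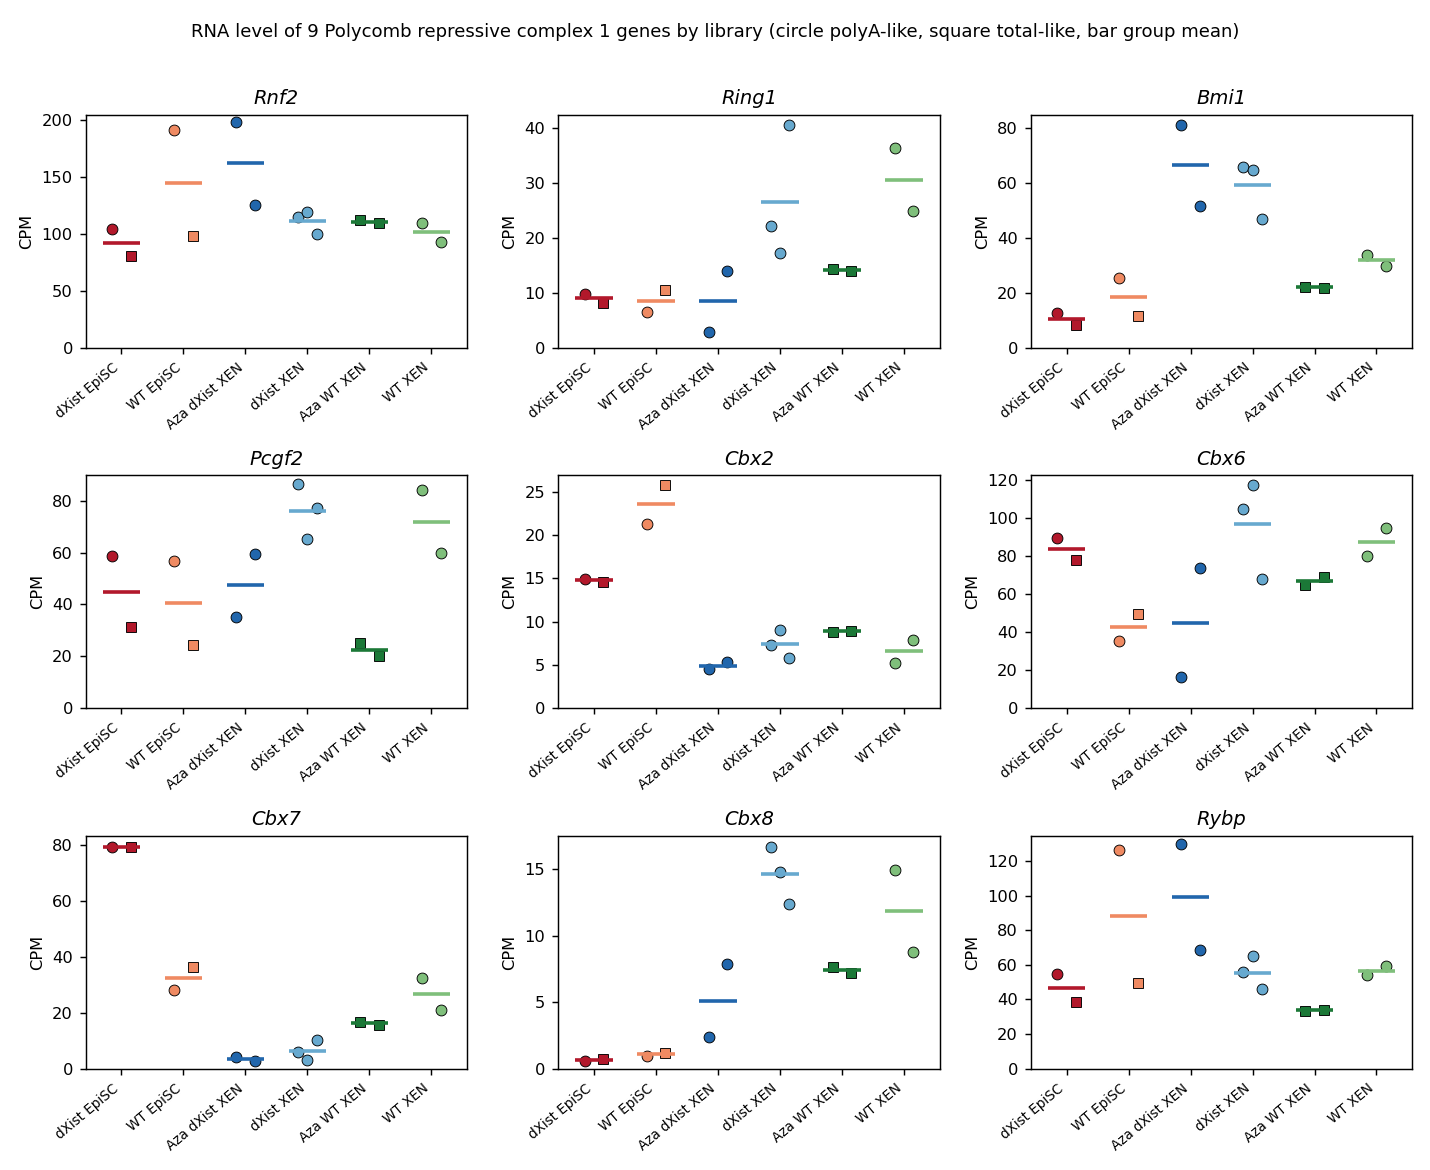
Level of each gene in CPM (vertical axes, each from 0) in the 13 libraries, by group; circles are polyA-like libraries, squares total-like libraries and bars group means. Cbx8 lay between 0.598 and 1.21 CPM in the 4 EpiSC libraries and between 2.39 and 16.7 CPM in the 9 XEN libraries, and Cbx7 between 79.3 and 79.5 CPM in dXist EpiSC and between 2.95 and 10.2 CPM in dXist XEN.

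The sharpest differences among the 9 genes were between the cell types. In WT EpiSC against WT XEN, Cbx2 was higher and Cbx8, Ring1 and Cbx6 were lower, 4 genes called at an adjusted p under 0.05 (edgeR quasi-likelihood F test, Benjamini-Hochberg over 19733 genes), where 30.8% of all genes tested were called. In dXist EpiSC against dXist XEN, Cbx7 and Cbx2 were higher and Cbx8, Bmi1 and Ring1 were lower, 5 genes called against 38.4% of all genes. Cbx2, Cbx8 and Ring1 were thus called in both, in the same direction each time, and the comparisons share no library but do share 1 estimate of the spread. The CPM of the groups did not overlap for 6 of the 9 genes in each comparison, against 66.4% of all genes tested in WT cells and 68.7% in dXist cells. The median log2 fold change of the 9 genes was -0.79 in WT cells, against 0.13 over all genes tested, and -0.24 in dXist cells, against 0.085. Library type is unequal between the cell types, since 1 of 2 libraries in each EpiSC group and none of the untreated XEN libraries was total-like. A GC correction per library, chosen after seeing the data, also moved some calls, which are given gene by gene.

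**Figure D2:**
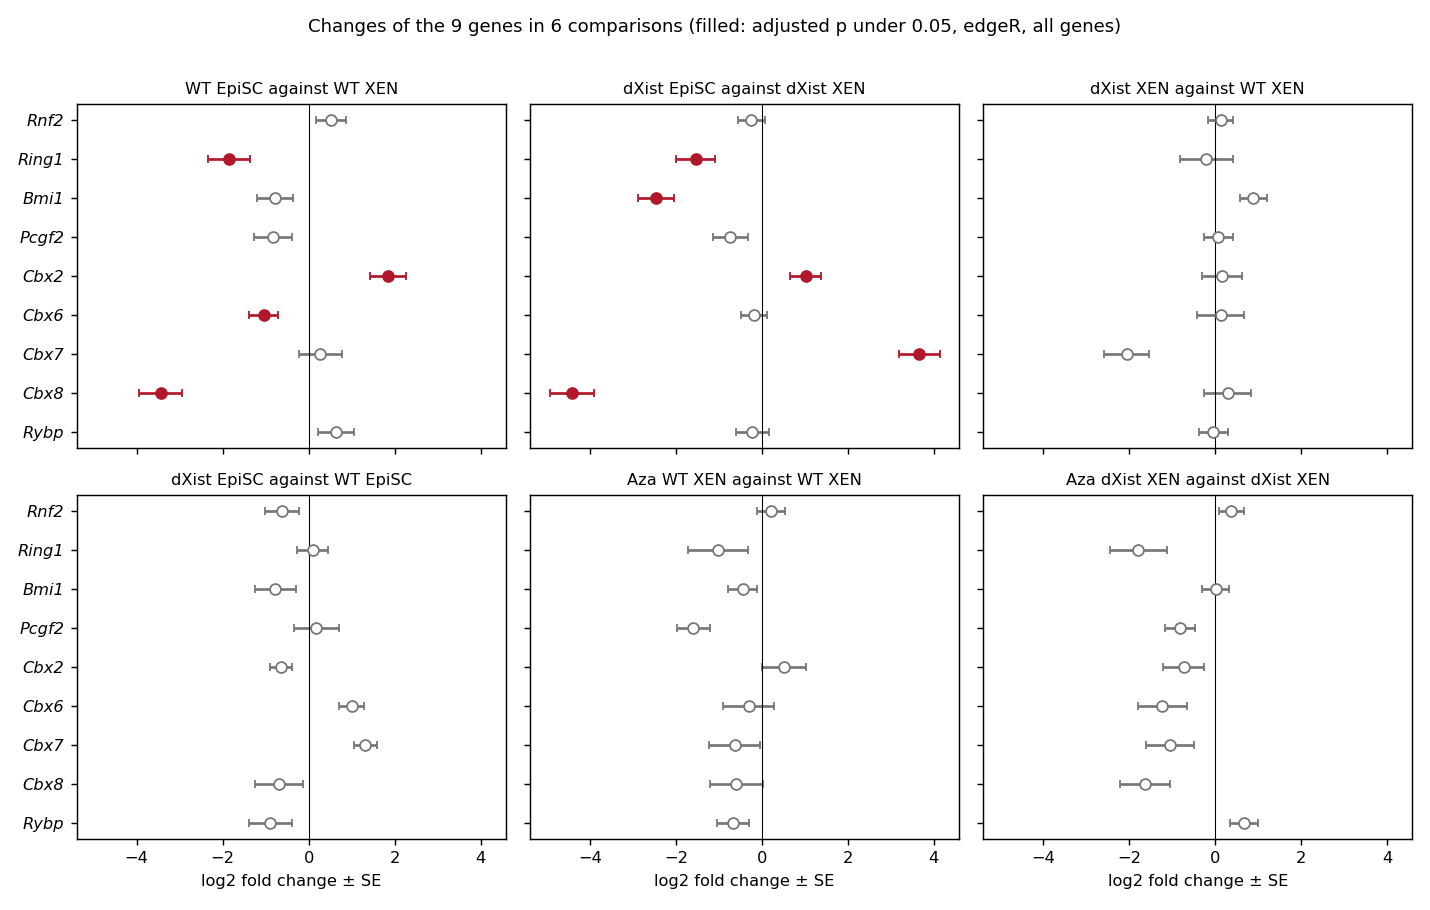
Log2 fold change (horizontal axes) of the 9 genes in 6 comparisons, the first-named group over the second; bars are standard errors and filled points passed an adjusted p under 0.05. Filled points stand only in the 2 comparisons of EpiSC with XEN, from -4.43 for Cbx8 to 3.66 for Cbx7.

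The ligases differed in pattern: Rnf2 was not called in any comparison, and Ring1 was lower in EpiSC. Rnf2, also known as RING1B and the main H2A ubiquitin ligase of the complex, was at 105 and 80.4 CPM in dXist EpiSC and at 191 and 98.3 CPM in WT EpiSC. Among XEN groups it was at 199 and 125 CPM in Aza dXist XEN, 115, 119.6 and 99.8 CPM in dXist XEN, 112 and 109.9 CPM in Aza WT XEN, and 109 and 93.3 CPM in WT XEN. The highest values were those of WT EpiSC library 1 and Aza dXist XEN library 1, the 2 libraries lowest in GC-rich genes, and the remaining 11 libraries stayed between 80.4 and 125 CPM. Its log2 fold change was 0.51 (SE 0.35, adjusted p 0.279) in WT EpiSC against WT XEN and -0.24 (SE 0.32, adjusted p 0.566) in dXist EpiSC against dXist XEN by edgeR.

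Ring1, the paralogous ligase RING1A, was at 9.81 and 8.11 CPM in dXist EpiSC, against 22.1, 17.2 and 40.5 CPM in dXist XEN. It was at 6.55 and 10.5 CPM in WT EpiSC, against 36.3 and 24.9 CPM in WT XEN. All EpiSC values lay below all untreated XEN values. The edgeR log2 fold changes were -1.54 (SE 0.45, adjusted p 0.0255, 2.90-fold lower) in dXist cells and -1.85 (SE 0.49, adjusted p 0.0192, 3.60-fold lower) in WT cells. With the GC correction these became -1.06 (adjusted p 0.0647) and -1.03 (adjusted p 0.106), and over all alternatives the calls were kept in 8 of 13 in dXist cells and 7 of 12 in WT cells. Without WT XEN library 1 or WT EpiSC library 1 the WT call was lost, and without either dXist EpiSC library the dXist call was lost. The treated XEN groups were at 2.88 and 13.9 CPM in Aza dXist XEN and 14.3 and 14.0 CPM in Aza WT XEN. Of the summed level per length of both ligases, Rnf2 made up 89.0% ± 0.50 in dXist EpiSC and 91.9% ± 5.52 in WT EpiSC (SD, n = 2 each). In untreated XEN cells Rnf2 made up 77.0% ± 9.77 in dXist XEN (SD, n = 3) and 72.5% ± 3.03 in WT XEN (SD, n = 2). In treated XEN cells it made up 92.9% ± 7.48 in Aza dXist XEN and 86.0% ± 0.018 in Aza WT XEN (SD, n = 2 each), so that Aza dXist XEN overlapped with the EpiSC groups.

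Of the PCGF subunits, which set the type of complex, Bmi1 was lower in dXist EpiSC against dXist XEN, and no other comparison called Bmi1 or Pcgf2 by edgeR. Bmi1 (PCGF4), a repressor of the Cdkn2a locus that sustains the self-renewal of stem cells, was at 12.7 and 8.29 CPM in dXist EpiSC and at 25.4 and 11.3 CPM in WT EpiSC. In XEN cells it was at 81.0 and 51.6 CPM in Aza dXist XEN, 65.5, 64.6 and 46.9 CPM in dXist XEN, 22.1 and 21.7 CPM in Aza WT XEN, and 33.5 and 29.8 CPM in WT XEN. The 3 dXist XEN libraries and the 2 labelled Aza dXist XEN were the 5 highest of the 13, and the EpiSC libraries overlapped with Aza WT XEN but lay below WT XEN. In dXist EpiSC against dXist XEN the log2 fold change was -2.46 (SE 0.42, adjusted p 0.00227, edgeR), 5.48-fold lower, and this call held in all 13 alternative settings, from -2.83 to -2.04. In WT EpiSC against WT XEN it was -0.79 (SE 0.42, adjusted p 0.174), and -1.42 (adjusted p 0.00753) with the GC correction.

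Pcgf2 (MEL18), the paralogue of Bmi1 in canonical complexes, was at 58.6 and 31.1 CPM in dXist EpiSC and at 56.7 and 24.4 CPM in WT EpiSC. In XEN cells it was at 35.3 and 59.5 CPM in Aza dXist XEN, 86.4, 65.1 and 77.0 CPM in dXist XEN, 24.9 and 19.9 CPM in Aza WT XEN, and 84.2 and 59.7 CPM in WT XEN. The 4 total-like libraries were the 4 lowest of the 13. Within EpiSC, the total-like library was lower than the polyA-like one by a log2 ratio of -0.91 in dXist EpiSC and -1.21 in WT EpiSC. In the pair of Bmi1 and Pcgf2, Bmi1 made up 17.6% ± 2.08 of the summed level per length in dXist EpiSC and 28.8% ± 0.52 in WT EpiSC (SD, n = 2 each), and 40.7% ± 5.91 in dXist XEN (SD, n = 3) and 28.4% ± 3.22 in WT XEN (SD, n = 2). The share of Bmi1 was below that of WT cells in dXist EpiSC and above it in dXist XEN, with no overlap of libraries in either. In treated XEN cells it was 55.3% ± 16.7 in Aza dXist XEN and 46.6% ± 3.66 in Aza WT XEN (SD, n = 2 each); these shares were not tested.

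Among the chromodomain proteins, Cbx8, a CBX protein that represses the Ink4a-Arf locus in fibroblasts, had its highest levels in XEN cells. It was at 0.598 and 0.737 CPM in dXist EpiSC, against 16.7, 14.8 and 12.4 CPM in dXist XEN. In wild-type cells it was at 0.988 and 1.21 CPM in WT EpiSC, against 14.9 and 8.80 CPM in WT XEN. The groups lay far apart in both genotypes, with log2 fold changes of -4.43 (SE 0.51, adjusted p 0.000299, 21.5-fold lower) in dXist cells and -3.44 (SE 0.50, adjusted p 0.00133, 10.8-fold lower) in WT cells by edgeR. Both calls held under every alternative tried, with log2 fold changes from -4.60 to -4.01 in dXist cells and from -3.70 to -2.75 in WT cells. The treated XEN cells were at 2.39 and 7.84 CPM in Aza dXist XEN and 7.64 and 7.21 CPM in Aza WT XEN, all above every EpiSC library.

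Cbx2, a compacting CBX protein that neighbours Cbx8 on chromosome 11, moved the other way between the cell types. It was at 14.9 and 14.6 CPM in dXist EpiSC, against 7.35, 9.05 and 5.77 CPM in dXist XEN, and at 21.3 and 25.9 CPM in WT EpiSC, against 5.23 and 7.88 CPM in WT XEN. All 4 EpiSC libraries were above all 9 XEN libraries, since the treated XEN groups were at 4.48 and 5.35 CPM (Aza dXist XEN) and 8.81 and 8.93 CPM (Aza WT XEN). In WT cells the log2 fold change was 1.84 (SE 0.41, adjusted p 0.00969, edgeR), 3.59-fold higher, and it missed the threshold only without WT XEN library 1 (adjusted p 0.0639). In dXist cells it was 1.03 (SE 0.36, adjusted p 0.0479), and it kept the call in 3 of 13 alternatives, with adjusted p-values from 0.00894 to 0.205.

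Cbx7, the main CBX protein of pluripotent cells, was higher in dXist EpiSC against dXist XEN. It was at 79.3 and 79.5 CPM in dXist EpiSC, against 28.3 and 36.4 CPM in WT EpiSC. It was at 6.0, 2.95 and 10.2 CPM in dXist XEN, against 32.4 and 21.0 CPM in WT XEN. The deleted cells thus lay above wild type in EpiSC and below it in XEN, with no overlap in either cell type. In dXist EpiSC against dXist XEN the log2 fold change was 3.66 (SE 0.47, adjusted p 0.000537, edgeR), 12.7-fold higher, and the call held in all 13 alternatives (3.32 to 4.22). In WT EpiSC against WT XEN it was 0.28 (SE 0.50, adjusted p 0.692), with overlapping libraries. The treated libraries were at 4.11 and 2.81 CPM in Aza dXist XEN and 16.8 and 15.7 CPM in Aza WT XEN.

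The effect of the deletion on Cbx7 did not pass the threshold over all genes in either cell type. In dXist XEN against WT XEN it was 4.16-fold lower (log2 fold change -2.06, SE 0.53, adjusted p 0.30, edgeR). In dXist EpiSC against WT EpiSC it was 2.49-fold higher (log2 1.32, SE 0.27, adjusted p 0.239). Within the polyA-like pair of EpiSC libraries the log2 ratio was 1.48, and within the total-like pair it was 1.12. The difference between the effects in EpiSC and XEN was 3.39 on the log2 scale (SE 0.69, edgeR adjusted p 0.199). Across 17 alternatives its adjusted p ran from 3.43e-05 to 0.786, with 4 calls. These 4 were DESeq2 (0.00174), without the filter on low counts, with the replicate number as a block (0.00875) and without dXist XEN library 3 (0.0113). The same 4 settings called Cbx7 in dXist XEN against WT XEN, at adjusted p-values from 0.0183 to 0.0346. For the difference of effects edgeR called 0 of the 9 genes, where 0.0101% of all genes were called; 2 of the 9, Cbx7 and Bmi1, had an unadjusted p under 0.05, against 10.3% of all genes, and DESeq2 called 1, against 1.15% of the genes it fitted. For Bmi1 the difference was -1.67 (SE 0.58, adjusted p 0.407).

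Cbx6, a further CBX protein of canonical complexes, was at 89.4 and 77.9 CPM in dXist EpiSC and at 35.2 and 49.8 CPM in WT EpiSC. In XEN cells it was at 16.3 and 73.9 CPM in Aza dXist XEN, 105, 117 and 68.1 CPM in dXist XEN, 65.0 and 69.1 CPM in Aza WT XEN, and 80.3 and 94.6 CPM in WT XEN. Both WT EpiSC libraries lay below both WT XEN libraries, and dXist EpiSC lay within the range of dXist XEN. The log2 fold change in WT cells was -1.04 (SE 0.34, adjusted p 0.0416, edgeR); it kept the call in 3 of 12 alternatives, and with the GC correction it was -0.34 (adjusted p 0.390). In dXist EpiSC against WT EpiSC it was 1.0 (SE 0.30, adjusted p 0.377).

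Set side by side per length, the 4 CBX genes formed different mixtures in the groups. Cbx7 made up 51.5% ± 1.78 of their summed level in dXist EpiSC and 33.6% ± 0.071 in WT EpiSC (SD, n = 2 each), and 6.79% ± 5.04 in dXist XEN (SD, n = 3) and 23.8% ± 5.81 in WT XEN (SD, n = 2). Cbx2 made up 14.6% ± 0.23 in dXist EpiSC and 37.5% ± 1.58 in WT EpiSC, and 10.9% ± 0.99 in dXist XEN and 9.08% ± 3.12 in WT XEN. Cbx8 made up 0.766% and 2.02% in dXist EpiSC and WT EpiSC, and 25.3% and 18.7% in dXist XEN and WT XEN. Cbx6 was the largest of the 4 in every XEN library, from 39.6 to 64.6%, and made up 33.1% in dXist EpiSC and 26.9% in WT EpiSC. The summed level itself was 24.3 and 23.2 CPM per kb in dXist EpiSC and 12.9 and 16.7 CPM per kb in WT EpiSC, and it was 17.1, 17.7 and 12.7 CPM per kb in dXist XEN and 17.9 and 16.4 CPM per kb in WT XEN. In treated XEN cells Cbx7 made up 10.2% ± 8.74 in Aza dXist XEN and 19.4% ± 1.05 in Aza WT XEN, and Cbx8 18.3% ± 2.10 and 15.6% ± 0.76 (SD, n = 2 each). These shares are descriptions and were not tested.

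**Figure D3:**
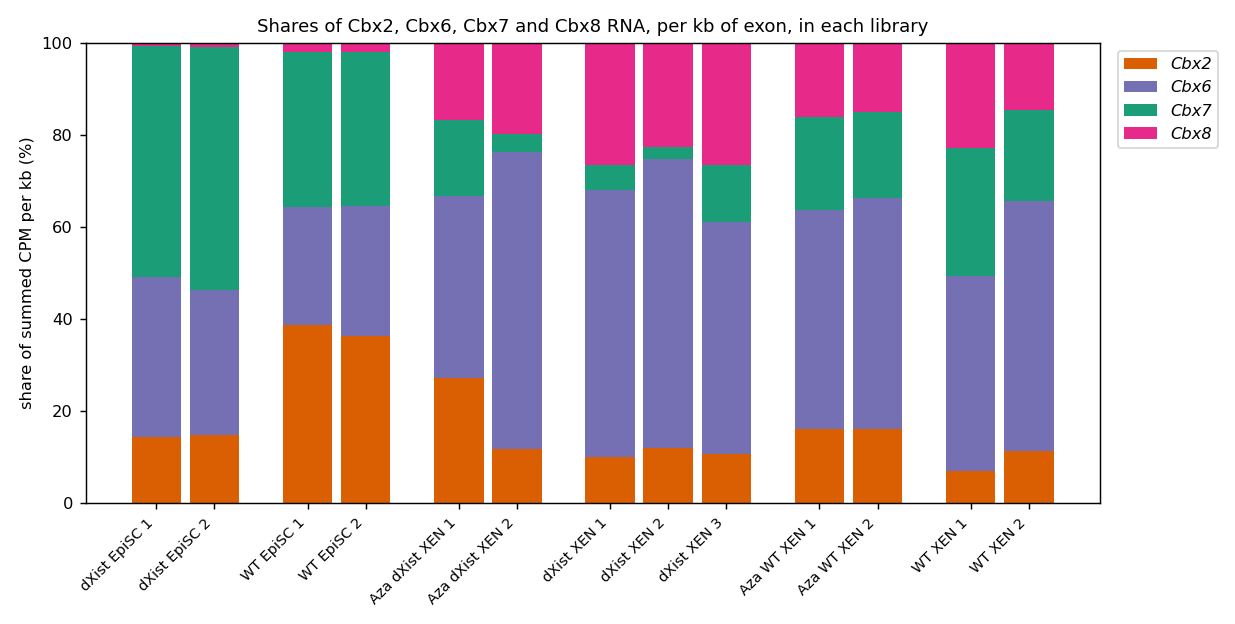
Share of Cbx2, Cbx6, Cbx7 and Cbx8 in their summed level per kb of exon (vertical axis, percent) in each of the 13 libraries. Cbx7 and Cbx2 together fill most of each EpiSC bar, with Cbx7 at 50.3 to 52.8% in dXist EpiSC and 33.6 to 33.7% in WT EpiSC, Cbx8 takes at most 2.08% of any EpiSC bar, and the XEN bars are led by Cbx6.

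Rybp, which replaces the CBX protein in variant complexes and stimulates the ligase, was at 54.6 and 38.5 CPM in dXist EpiSC and at 126 and 49.7 CPM in WT EpiSC. In XEN cells it was at 129.6 and 68.3 CPM in Aza dXist XEN, 55.6, 64.8 and 46.0 CPM in dXist XEN, 33.6 and 33.7 CPM in Aza WT XEN, and 53.9 and 59.4 CPM in WT XEN. Like Rnf2, it was highest in WT EpiSC library 1 and Aza dXist XEN library 1. No comparison called it; the edgeR log2 fold change was 0.63 (SE 0.42, adjusted p 0.265) in WT EpiSC against WT XEN and -0.22 (SE 0.39, adjusted p 0.662) in dXist EpiSC against dXist XEN.

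With Xist deleted in XEN cells, none of the 9 genes passed the threshold over all genes, and Bmi1 and Cbx7 lay outside the range of WT XEN. The same test did not call Xist itself, at a log2 fold change of -9.15 (SE 1.175, adjusted p 0.0602, edgeR). In dXist XEN against WT XEN, Bmi1 was 1.85-fold higher (log2 0.89, SE 0.32, adjusted p 0.403) and Cbx7 lower, as given above, and these were the 2 genes whose libraries did not overlap, against 28.3% of the 18393 genes tested. The other 7 genes had log2 fold changes between -0.20 (Ring1) and 0.30 (Cbx8). By edgeR 0 of the 9 genes were called at an adjusted p under 0.05, where 0.0217% of all genes were; 2 of the 9 had an unadjusted p under 0.05, against 10.7% of all genes, and DESeq2 called 1, Cbx7, against 1.28% of the genes it fitted. Library dXist XEN 3 was the highest of its group in Cbx7 and Ring1 and the lowest in every other gene except Pcgf2, and without it edgeR called 510 genes, Cbx7 among them, against 4 with it. All 5 libraries of this comparison were polyA-like. The sum of EpiSC markers was 46.0, 45.9 and 169 CPM in dXist XEN and 170 and 215 CPM in WT XEN, with 2, 2 and 1 of 8 markers at 1 CPM or more in dXist XEN and 2 and 2 in WT XEN. Dnmt3b alone, a DNA methyltransferase gene, gave 29.7, 29.6 and 168 CPM in dXist XEN and 165 and 206 CPM in WT XEN; its part in the result was not tested.

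In EpiSC, dXist libraries lay above WT libraries in Cbx7 and Cbx6 and below them in Cbx2 and Cbx8, the 4 of 9 genes whose libraries did not overlap, against 42.8% of the 17132 genes tested. Between these groups edgeR called 0 of the 9 genes at an adjusted p under 0.05 and 0% of all genes; 2 of the 9, Cbx6 and Cbx7, had an unadjusted p under 0.05, against 10.2% of all genes, and DESeq2 called 1, Cbx7, against 1.63% of the genes it fitted. With the replicate number as a block, which here also separates the polyA-like from the total-like libraries, the test called 1960 genes, Cbx6 (log2 1.02, adjusted p 0.00791) and Cbx7 (log2 1.33, adjusted p 0.000196) among them. Cbx2 had a log2 fold change of -0.65 (SE 0.26, adjusted p 0.498) and Cbx8 one of -0.70 (SE 0.56, adjusted p 0.716). Xist itself missed the threshold by edgeR without the block, at -10.4 (SE 1.03, adjusted p 0.102). The fibroblast marker sum moved with this comparison: it was 224 and 160 CPM in dXist EpiSC, with 6 of 9 markers at 1 CPM or more and Lum at 0, and 787 and 664 CPM in WT EpiSC, with 7 and 8 of 9 at 1 CPM or more. Pou5f1, an EpiSC marker, was at 602 and 416 CPM in dXist EpiSC and 206 and 259 CPM in WT EpiSC. The part of these differences in the changes of the 9 genes was not tested.

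The inhibitor was compared in XEN cells of both genotypes. In Aza WT XEN against WT XEN the libraries of all 9 genes did not overlap, 2 higher (Cbx2 and Rnf2, where 28.1% of all genes were) and 7 lower (where 31.7% were), 59.8% of all genes tested in either direction. By edgeR 0 of the 9 were called, where 0.582% of all genes were; 1 had an unadjusted p under 0.05, against 12.4% of all genes, and DESeq2 called 1, against 1.91% of the genes it fitted, both times Pcgf2, at 3.02-fold lower (log2 -1.60, SE 0.39, adjusted p 0.151 by edgeR and 0.0174 by DESeq2). Treatment and library type coincide in this comparison, since both treated libraries were total-like and both untreated ones polyA-like. When all 13 libraries were fitted together and library type was added as a term, the log2 fold change of Pcgf2 was -0.62 (SE 0.50). Only the EpiSC groups held libraries of both types, so that term carries a difference seen in EpiSC over to XEN. It cannot separate treatment from library type in WT XEN. The 2 Aza WT XEN libraries were far more alike than any other replicates (chi-square per gene 3.89, against 75.5 to 524), so their spread is narrower than that of the groups they are set against. They also held the fewest counts (5848454 and 9181835), and a chi-square on counts grows with depth, so the size of this gap is partly one of depth.

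In Aza dXist XEN against dXist XEN the libraries of 6 genes did not overlap, Rnf2 and Rybp higher and Cbx2, Cbx8, Pcgf2 and Ring1 lower, against 42.2% of all genes tested. EdgeR called 0 of the 9, where 0.0761% of all genes were called; 3 had an unadjusted p under 0.05 (Cbx8, Ring1 and Pcgf2), against 26.8% of all genes, and DESeq2 called 2, Cbx8 and Ring1, against 7.54% of the genes it fitted. Library dXist XEN 3 had no treated library of its number. With that library left out edgeR called 414 genes, against 14 with it, and 0 of the 9. Cbx8 had a log2 fold change of -1.63 (SE 0.58, adjusted p 0.123) and Ring1 one of -1.78 (SE 0.67, adjusted p 0.134). These values rest largely on Aza dXist XEN library 1. Without library 2, the one at 242 CPM of Xist, they were -2.83 and -3.43. With library 1 left out they were -1.03 and -1.07. Cbx6 likewise was at -2.80 without library 2 and at -0.52 without library 1. Across 12 alternatives Rybp ran from 0.17 to 1.0 and Pcgf2 from -1.34 to -0.12. Library 1 was the lowest of all libraries in GC-rich against AT-rich genes, at -2.11 on the scale given above. The part of that in these values was not tested. The difference between the treatment effects in dXist XEN and WT XEN was called for 0 of the 9 genes, against 0.245% of all genes, with 1 at an unadjusted p under 0.05 (Rybp, where 8% of all genes were) and 0 by DESeq2, against 0.591% of the genes it fitted. Across 16 alternatives this difference ran from 0.66 to 1.68 on the log2 scale for Rybp and from -2.48 to -0.13 for Cbx6. The XEN marker sum was 17296 and 42509 CPM in Aza dXist XEN and 43008, 44761 and 57199 CPM in dXist XEN; its part in these values was not tested.

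The 2 libraries of Aza dXist XEN differed from each other most in Ring1, Cbx6 and Cbx8. The AT-rich Rnf2, Bmi1 and Rybp were higher in library 1, by log2 ratios of 0.67, 0.65 and 0.92. Of the GC-rich genes Ring1, Cbx6, Cbx8, Pcgf2 and Cbx2 were lower, by -2.20, -2.17, -1.63, -0.75 and -0.25, and Cbx7 was higher at 0.52. With the GC correction the log2 fold change of Cbx8 in Aza dXist XEN against dXist XEN was -1.0 and that of Ring1 was -1.08, and those of Bmi1, Rnf2, Cbx2 and Cbx7 changed sign.

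**Figure D4:**
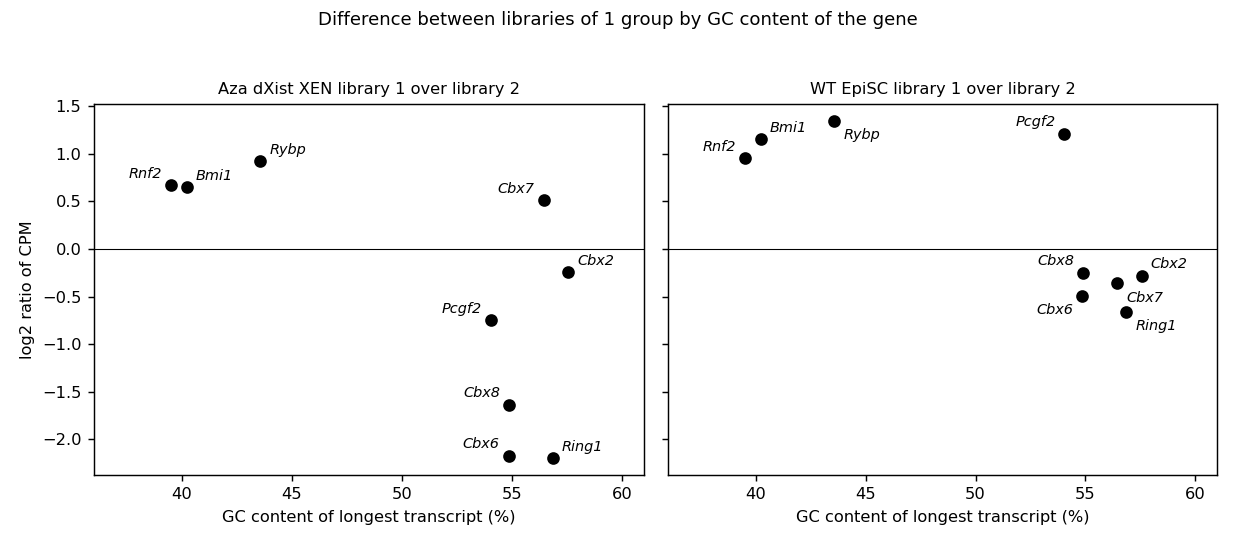
Log2 ratio of CPM between the 2 libraries of a group (vertical axis) against the GC content of the longest transcript in percent (horizontal axis) for the 9 genes, in Aza dXist XEN (left) and WT EpiSC (right). Rnf2, Bmi1 and Rybp, at 39.5 to 43.6% GC, lie above 0 in both panels, and Ring1, Cbx6, Cbx8 and Cbx2 lie below 0 in both. Pcgf2 lies below 0 on the left and above 0 on the right, and Cbx7 the reverse. In WT EpiSC the libraries also differ in type, so GC content and library type cannot be told apart there.

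Other genes of the complex also differed between the cell types. Of 5 further canonical partners, 3 were called higher and 0 lower in WT EpiSC against WT XEN (median log2 fold change 1.09, against 0.13 over all genes tested), where 16.8% of all genes were called higher and 14.1% lower. In dXist EpiSC against dXist XEN 2 were called higher and 0 lower (median 0.61, against 0.085), where 21.5% of all genes were called higher and 16.9% lower. Phc1, a polyhomeotic subunit that oligomerises through its SAM domain, was at 454 and 414 CPM in dXist EpiSC, against 27.5, 23.3 and 40.8 CPM in dXist XEN, and at 649 and 376 CPM in WT EpiSC, against 64.8 and 43.6 CPM in WT XEN. Its log2 fold changes were 3.86 (SE 0.38, adjusted p 0.000119) and 3.24 (SE 0.43, adjusted p 0.000842) by edgeR, and every alternative kept both calls. Phc2, another polyhomeotic subunit, was higher by 0.83 (adjusted p 0.0292) and 1.09 (adjusted p 0.0187), calls kept in 5 of 13 and 6 of 12 alternatives. Scml2, a Polycomb protein with MBT repeats, passed in WT EpiSC against WT XEN at 3.09 (SE 0.90, adjusted p 0.0288), in 9 of 12 alternatives.

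Of 22 genes of variant complexes, 3 were called higher and 4 lower in dXist EpiSC against dXist XEN, where 21.5% of all genes were called higher and 16.9% lower (median log2 fold change 0.058, against 0.085 over all genes). In WT EpiSC against WT XEN 4 were called higher and 2 lower, where 16.8% of all genes were called higher and 14.1% lower (median 0.21, against 0.13). Pcgf5, the PCGF subunit of a variant complex linked to Xist, was at 13.4 and 12.4 CPM in dXist EpiSC, against 100.4, 75.9 and 117 CPM in dXist XEN, and at 18.4 and 11.5 CPM in WT EpiSC, against 219 and 171 CPM in WT XEN. Its log2 fold changes were -2.89 (SE 0.34, adjusted p 0.000317) and -3.71 (SE 0.36, adjusted p 0.000195) by edgeR, and both calls held under every alternative. Its paralogue Pcgf3 was higher in WT EpiSC against WT XEN, at 1.45 (adjusted p 0.0177, called in 9 of 12 alternatives), the opposite side from Pcgf5. Auts2, a partner of Pcgf3 and Pcgf5 complexes, was higher by 7.43 (SE 1.04, adjusted p 0.000948) in dXist cells and 4.10 (SE 1.04, adjusted p 0.0175) in WT cells, and the deacetylase gene Hdac2 by 1.12 (adjusted p 0.0370) and 1.71 (adjusted p 0.0140). The size of the Auts2 values rests on low or uneven XEN levels. These were 0.417, 0.486 and 0.0679 CPM in dXist XEN, the last below the 0.102 CPM of 3 counts, and 8.34 and 0.797 CPM in WT XEN. In dXist cells Kdm2b, which brings a variant complex to CpG islands, was higher by 1.64 (adjusted p 0.00143), while Max, a subunit of the PCGF6 complex, and Yaf2, the paralogue of Rybp, were lower by log2 fold changes of -1.55 (adjusted p 0.0122) and -1.88 (adjusted p 0.0152). Fbrsl1, a relative of Auts2, was lower in WT cells at -0.86 (adjusted p 0.0405), a call kept in 2 of 12 alternatives, and its value was 0.36 in one of them.

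**Figure D5:**
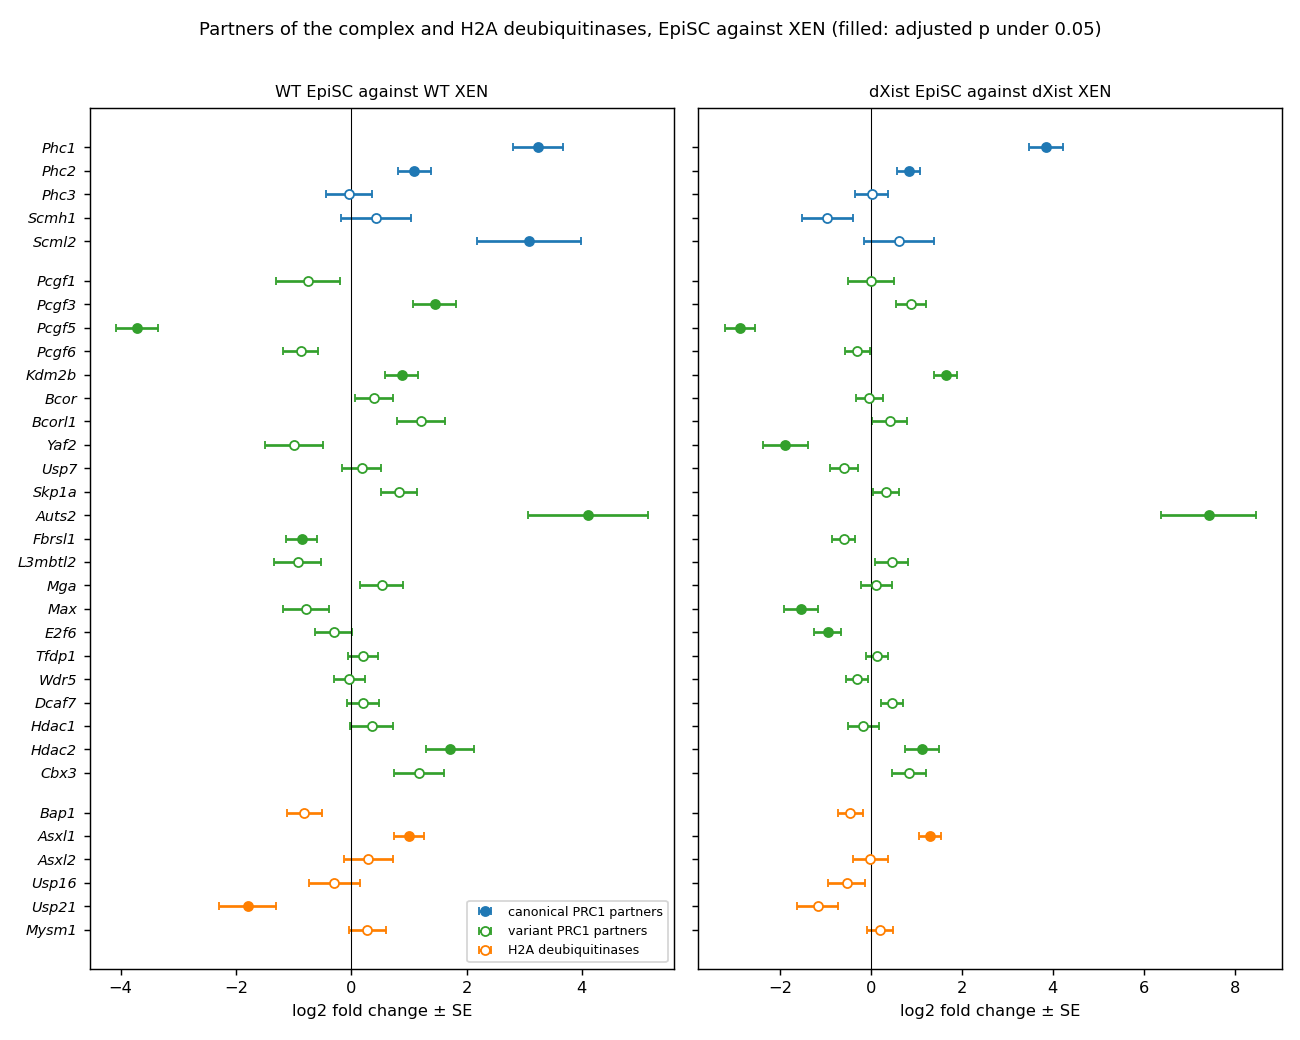
Log2 fold change (horizontal axis) with standard error of 33 further genes of PRC1 and of H2A deubiquitination in WT EpiSC against WT XEN (left) and dXist EpiSC against dXist XEN (right); filled points passed an adjusted p under 0.05. Pcgf5 (-3.71 and -2.89) lies farthest to the left, and Auts2 (4.10 and 7.43) and Phc1 (3.24 and 3.86) farthest to the right, in WT and dXist cells.

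Of 6 genes for removal of the H2A ubiquitin mark, Asxl1, the partner of the deubiquitinase BAP1, was higher in dXist EpiSC against dXist XEN (log2 1.30, SE 0.24, adjusted p 0.00299) and in WT EpiSC against WT XEN (1.0, SE 0.27, adjusted p 0.0196). Usp21, a deubiquitinase, was lower in WT cells (-1.80, SE 0.49, adjusted p 0.0224), a call kept in 6 of 12 alternatives and lost with the GC correction; no other gene of the list was called, and the list medians were -0.24 in dXist cells, against 0.085 over all genes, and -0.0069 in WT cells, against 0.13. Of 12 genes listed as known Polycomb targets 11 were found in the table and 10 passed the filter in each cell type comparison. Of these, 5 were called higher and 2 lower in dXist cells, where 21.5% of all genes were called higher and 16.9% lower. Their median log2 fold change was 1.87, or 1.49 with a gene at 0 counts set to its bound, against 0.085 over all genes. In WT cells 4 were called higher and 1 lower, where 16.8% of all genes were called higher and 14.1% lower (median 2.19, against 0.13). Cdkn2a, which encodes the cell-cycle inhibitors p16 and p19 and is the textbook target of Bmi1, was at 3.99 and 2.03 CPM in dXist EpiSC, against 25.3, 23.1 and 26.6 CPM in dXist XEN, and at 10.2 and 8.81 CPM in WT EpiSC, against 22.8 and 42.2 CPM in WT XEN. It was lower by log2 fold changes of -3.01 (SE 0.45, adjusted p 0.00109) and -1.77 (SE 0.44, adjusted p 0.0153) by edgeR, calls kept in all 13 and in 6 of 12 alternatives. Its neighbour Cdkn2b, another cell-cycle inhibitor, was higher in WT cells (log2 fold change 2.17, SE 0.49, adjusted p 0.0104). In dXist cells Cdkn2b was not called and had the opposite sign (-0.89, SE 0.44, adjusted p 0.131, edgeR). Hoxa9, a homeobox gene of posterior identity, was at 8.61 and 5.89 CPM in dXist EpiSC, against 0, 0.0374 and 0 CPM in dXist XEN, and at 37.2 and 18.2 CPM in WT EpiSC, against 0 counts in both WT XEN libraries, at least 616-fold higher when the group at 0 is set to 3 counts in all. The developmental factor Pax3 had 0 counts in all untreated XEN libraries and was at least 5.97-fold higher in dXist EpiSC and at least 34.9-fold higher in WT EpiSC. Its level was low, at 0.163 and 0.276 CPM in dXist EpiSC (12 counts in all) and 2.15 and 0.968 CPM in WT EpiSC (96 counts). In dXist cells Wt1, a transcription factor of the developing kidney and gonad, was higher (log2 fold change 3.37, SE 0.82, adjusted p 0.0114) and Gata3, a trophoblast and lymphoid factor, lower (-2.54, SE 0.78, adjusted p 0.0293). Fibroblast markers were present in EpiSC libraries and at most 5.21 CPM in sum in any XEN library; their part in these differences was not tested.

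The 4 lists had 0 called genes by edgeR in the comparisons within a cell type. In dXist XEN against WT XEN 6 of their 40 genes tested, 15%, had an unadjusted p under 0.05, against 10.7% of all genes, and DESeq2 called 1 of 44, against 1.28% of the genes it fitted. For dXist EpiSC against WT EpiSC 6 of 42, 14.3%, had an unadjusted p under 0.05, against 10.2% of all genes, and DESeq2 called 4 of 44, lower in each case, against 1.63%. The 6 were not spread evenly, since 5 were among the 9 Polycomb targets tested. The median log2 fold change of those 9 was -1.62, against -0.0033 over all genes, and 1 of the 9 was positive. In Aza WT XEN against WT XEN 6 of 40, 15%, had an unadjusted p under 0.05, against 12.4%, and DESeq2 called 0, against 1.91%. In Aza dXist XEN against dXist XEN 9 of 40, 22.5%, had an unadjusted p under 0.05, below the 26.8% of all genes, and DESeq2 called 5 of 44, against 7.54%.

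The genes most like each of the 9 across the 6 groups were found by the root mean square difference of centred log2 group means, over 10995 genes with a mean of at least 5 CPM. Rnf2 was closest to Edem3 (0.0454) and Camsap1 (0.0820), Rybp to Ik (0.0851) and Rsrc2 (0.108), and Ring1 to Mettl13 (0.0749) and Xrcc3 (0.0775). Cbx6 was closest to Rps19 (0.0935) and Tysnd1 (0.118), Cbx8 to Shf (0.101) and Tradd (0.258), and Bmi1 to Arl8a (0.130) and Slc30a4 (0.146). Pcgf2 was closest to Safb (0.175) and Stx4a (0.181), Cbx2 to Ecm1 (0.184) and Prmt6 (0.193), and Cbx7 to C1qtnf6 (0.382) and Prex1 (0.413). Cbx7 thus had the profile with the least close match of the 9, and none of the 9 was among the 2 genes closest to another of them.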

How the data were processed

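Bulk RNA-seq covered 13 libraries from mouse lines. The authors deposited a table of raw read counts per gene, without normalisation. Per the submitters' processing notes, FastQC, STAR 2.7.9a and featureCounts 2.0.1 were used with GRCm38 (mm10); no source used here states the counting strand. Per the labels, NEBNext Ultra and TruSeq stranded kits were used, without saying for which library. GENCODE vM21 gave symbols and positions for 38240 of 38377 identifiers, and RefSeq the upstream sequences.

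The tests used edgeR 4.0.16 under R 4.3.3 (robust quasi-likelihood F test after TMM scaling and filterByExpr, Benjamini-Hochberg over all genes tested, threshold 0.05). The 9 XEN libraries (18393 genes), the 4 EpiSC libraries (17132) and the 9 untreated libraries (19733) had a fit each; a self-test on simulated counts was checked first. The standard error of a log2 fold change is its size divided by the root of the F statistic. CPM are counts scaled to 1000000 of the TMM library size, and 3 counts were 0.0815 to 0.499 CPM in a library; floors cover counting error only. Alternatives were DESeq2 1.42.0, RLE scaling, no filter, the replicate number as a block, each library left out, all 13 libraries in 1 fit with or without library type (above or below 5% of counts in mitochondrial rRNA and Rn7sk), and, chosen after seeing the data, a library type term in the untreated fit and a GC correction (lowess per library). DESeq2 fitted every gene with a count, 35682 in the XEN fit, so its shares of called genes rest on more genes than those of edgeR. The shares of the 2 methods are therefore not on the same base. Replicate numbers were not taken as pairs: deviations of same-numbered libraries correlated at 0.793 in EpiSC, where the number coincides with library type, and at -0.138 to 0.145 among XEN libraries.

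The 9 genes and all gene lists were chosen with earlier results of these data known. The text names all 9, Xist, up to 3 called genes per list and direction by smallest adjusted p, and the 2 genes most like each of the 9; Pou5f1, Dnmt3b, Lum and Fbrsl1's range were named after their values were seen. One further gene of the complex is not reported here.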

Additional observations from a re-analysis of the deposited data

How the results depend on the processing

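The count of the 9 genes called moved with the method. DESeq2 called 1 in dXist XEN against WT XEN, 1 in Aza WT XEN against WT XEN, 2 in Aza dXist XEN against dXist XEN, 1 in dXist EpiSC against WT EpiSC and 1 in the difference of dXist effects, against 0 each by edgeR. In the same order DESeq2 called 1.28%, 1.91%, 7.54%, 1.63% and 1.15% of the genes it fitted. Without the filter 1 was called in each of dXist XEN against WT XEN, Aza WT XEN against WT XEN, Aza dXist XEN against dXist XEN and the difference of dXist effects. The shares of all genes called there were 1.92%, 2.09%, 7.71% and 1.76%. With the replicate block 1 was called in dXist XEN against WT XEN, 2 in dXist EpiSC against WT EpiSC and 1 in the difference of dXist effects. The block called 2%, 11.4% and 3.77% of all genes in these comparisons. In EpiSC the same-numbered libraries also shared library type. All 13 libraries in 1 fit, with or without a library type term, gave 2 in WT EpiSC against WT XEN and 3 in dXist EpiSC against dXist XEN. Of all genes, 22.1% and 25.9% were called with the term, and 27.2% and 36.2% without it. Leaving out 1 library at a time gave 0 to 1 in dXist XEN against WT XEN, 0 to 5 in Aza dXist XEN against dXist XEN, 0 to 2 in the difference of Aza effects, 1 to 5 in WT EpiSC against WT XEN, 3 to 4 in dXist EpiSC against dXist XEN and 0 to 1 in the difference of dXist effects. The 1s in dXist XEN against WT XEN and in the difference of dXist effects came without dXist XEN library 3, where 2.87% and 3.44% of all genes were called. The highest counts of the treated comparisons came without Aza dXist XEN library 2. That left library 1, at -2.11 on the GC scale, alone in its group. WT EpiSC against WT XEN gave 1 without WT XEN library 1, 2 without WT EpiSC library 1 and 5 without WT EpiSC library 2, and dXist EpiSC against dXist XEN gave 3 without either dXist EpiSC library. A library left alone in its group was assumed to vary like the others. Counts over all genes also moved. By edgeR, DESeq2, no filter and the replicate block they were 4, 455, 684 and 368 in dXist XEN against WT XEN, 14, 2691, 2750 and 131 in Aza dXist XEN against dXist XEN, 0, 494, 676 and 1960 in dXist EpiSC against WT EpiSC, and 2, 403, 616 and 743 in the difference of dXist effects. In Aza WT XEN against WT XEN they were 107 by edgeR, 681 by DESeq2, 747 without the filter and 2 with all 13 libraries in 1 fit, and in the difference of Aza effects 45, 211, 337 and 1 in the same order. The replicate block changed no other count of the 9 genes by over 1.5 times. The causes were not tested. Cbx8 in both comparisons of cell types, and Cbx7 and Bmi1 in dXist EpiSC against dXist XEN, kept their calls under every alternative. RLE scaling put the median of all genes at 0.22 in WT EpiSC against WT XEN, against 0.13 with TMM.

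With the GC correction the sign turned, to these log2 values: Rnf2 -0.086 in dXist XEN against WT XEN, Bmi1 -0.53, Cbx2 0.44, Cbx7 0.18 and Rnf2 -0.21 in Aza dXist XEN against dXist XEN, Bmi1 -0.17, Cbx7 0.60 and Rnf2 -0.51 in the difference of Aza effects, Pcgf2 -0.044 and Ring1 -0.11 in dXist EpiSC against WT EpiSC, Rnf2 -0.15 in WT EpiSC against WT XEN, Cbx6 0.23 in dXist EpiSC against dXist XEN, Pcgf2 -0.21 and Ring1 -0.033 in the difference of dXist effects. With the replicate block the sign turned, to these log2 values: Rybp 0.073 in dXist XEN against WT XEN, Bmi1 -0.14 in Aza dXist XEN against dXist XEN, Cbx7 0.12 in the difference of Aza effects. Without the filter the sign turned, to these log2 values: Bmi1 -0.050 in Aza dXist XEN against dXist XEN. With all 13 libraries and a library type term the sign turned, to these log2 values: Bmi1 0.36 and Rybp 0.17 in Aza WT XEN against WT XEN, Bmi1 -0.20, Cbx7 0.0090, Pcgf2 -0.067 and Rnf2 -0.26 in the difference of Aza effects, Rnf2 0.058 and Rybp 0.20 in dXist EpiSC against dXist XEN. With a library type term in the untreated libraries the sign turned, to these log2 values: Rnf2 0.089 and Rybp 0.23 in dXist EpiSC against dXist XEN. Leaving out 1 library at a time turned the sign of 15 values, with these log2 ranges: Cbx2 -0.12 to 0.54, Cbx6 -0.031 to 0.33, Pcgf2 -0.11 to 0.32, Ring1 -0.66 to 0.068 and Rybp -0.17 to 0.081 in dXist XEN against WT XEN, Bmi1 -0.32 to 0.23 in Aza dXist XEN against dXist XEN, Cbx7 -0.76 to 0.11, Ring1 -2.39 to 0.043 and Rnf2 -0.092 to 0.41 in the difference of Aza effects, Pcgf2 -0.37 to 0.90 and Ring1 -0.22 to 0.49 in dXist EpiSC against WT EpiSC, Rybp -0.14 to 1.17 in WT EpiSC against WT XEN, Rybp -0.53 to 0.046 in dXist EpiSC against dXist XEN, Pcgf2 -0.46 to 0.80 and Ring1 -0.035 to 0.75 in the difference of dXist effects. No value that turned sign had passed the threshold. Groups of 2 or 3 libraries, 1 EpiSC library of each type, and treated WT XEN libraries of 1 type alone limit what could be called.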
